A study of Arabidopsis thaliana with 24 samples.

Results

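The response of Arabidopsis thaliana roots to nano-ceria (cerium dioxide particles, CeO2) was compared with that of rosette leaves, by testing the CeO2 effect in roots minus the CeO2 effect in leaves. An effect is the mean log2 signal of 3 arrays of CeO2 plants minus that of 3 arrays of water plants of the same tissue, so the comparison used 12 of the 24 Affymetrix ATH1 arrays of the study. The samples were chosen by their labels alone. All plants were Columbia (Col-0) wild type, grown in potting media in pots, and RNA was taken at 29 days. The CeO2 plants were watered from above with a 500 mg/L suspension in millipore water on days 0, 4 and 17, and the water plants received millipore water without particles. The remaining 12 arrays came from plants given nano-titania (titanium dioxide particles, TiO2) at 500 mg/L in KCl, and from their KCl controls. These entered only the estimate of the spread and a side-by-side comparison. Descriptions of the samples put KCl at 0.1 mM, whereas the protocol for treatment has 0.1 M. The replicates are called biological, with nothing that ties a root array to a leaf array of the same plants, and p-values measure the spread between these 3 samples per group.

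Cerium is not a plant nutrient, and cerium dioxide particles can take up or release oxygen at their surface as cerium changes between its oxidation states. Roots in treated soil meet the particles directly, whereas rosette leaves are reached by what moves upward through the xylem or by what touches them during watering from above. The tissues also start from very different transcript pools: leaves carry high levels of photosynthesis transcripts, and roots carry transcripts for nutrient uptake and for soil-facing defence.

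Signal was read on the log2 scale at 22746 probe sets, and the medians of the 12 arrays lay between 4.96 and 5.13. Pearson correlations between arrays of a group ran from 0.873 to 0.975 in roots and from 0.917 to 0.968 in leaves. The lowest was that of CeO2 root replicates 1 and 3. Water root replicate 1 and CeO2 leaf replicate 2 had a lower quartile above 3.7, where the other 10 were below it. The median standard deviation over 3 arrays was 0.324 in water roots, 0.337 in CeO2 roots, 0.244 in water leaves and 0.380 in CeO2 leaves. The tissue labels matched the defining markers. The log2 of the summed signal of 9 leaf photosynthesis markers ran from 14.42 to 15.58 over the 6 leaf arrays and from 9.88 to 12.17 over the 6 root arrays. That of 5 root markers ran from 12.34 to 13.60 in roots and from 6.31 to 7.45 in leaves. Phloem and flower markers had no named probe set. Markers of seed (2 genes), guard cells (1) and dividing cells (1) summed to 4.68 or less on every array, near the bottom of the scale. The 2 xylem markers summed to 6.23 to 8.45 in roots and 5.17 to 5.75 in leaves.

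Ceria's effect differed between roots and leaves at 1 probe set, 255521_at, with limma and Benjamini-Hochberg adjustment over all 22746 probe sets at a threshold of 0.05. That is 0.0044% of the probe sets tested. It was higher in roots, and 0 probe sets passed in the other direction. At an unadjusted p below 0.05 there were 1116 probe sets, or 4.91%, against the 1137 that an even spread of p-values would give. Of these, 595 (2.62%) had a higher and 521 (2.29%) a lower CeO2 effect in roots than in leaves. The median standard error of the difference was 0.504. For a typical probe set a difference near 1 on the log2 scale, a factor of 2, would thus reach only the unadjusted threshold. Passing the adjusted threshold would have taken a far larger difference. A p that missed the threshold therefore does not show that roots and leaves responded alike.

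**Figure D1:**
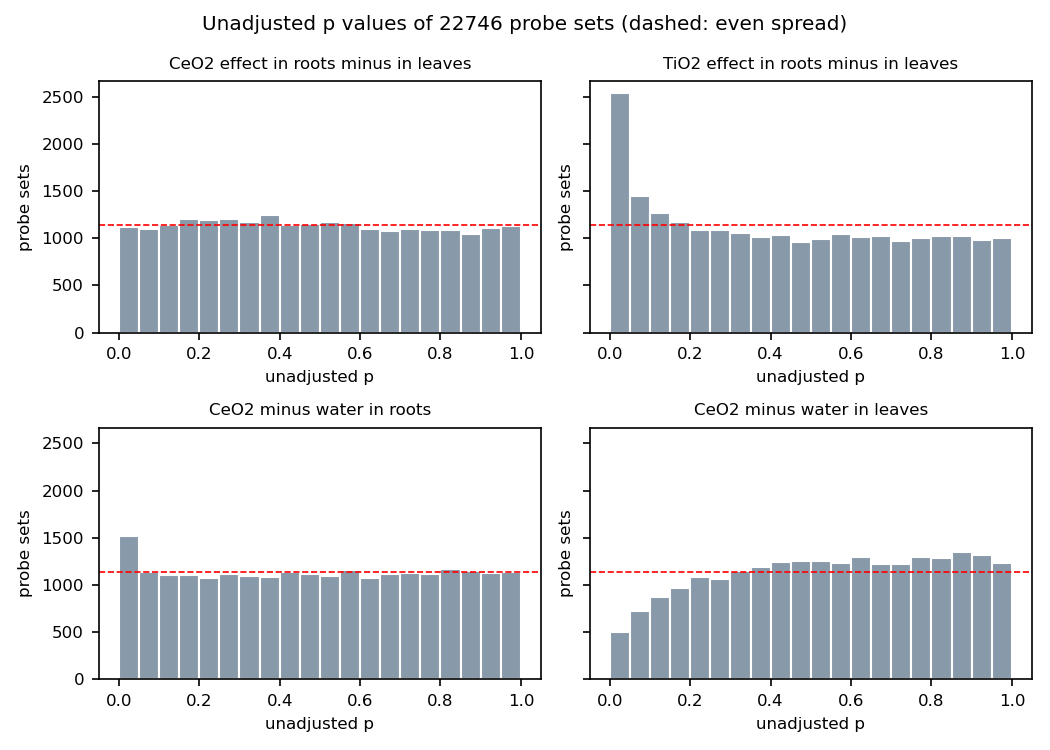
Number of probe sets (vertical axis) in each bin of unadjusted limma p (horizontal axis, bins of 0.05) for 4 comparisons of 22746 probe sets. The dashed line marks an even spread. The CeO2 root-minus-leaf difference stays near the line in every bin, with 1116 probe sets in the first bin, whereas the TiO2 difference has 2537 there, CeO2 in roots 1523 and CeO2 in leaves 503.

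The single passing probe set, 255521_at, read 4.30, 4.39 and 4.56 in water roots and 6.64, 6.30 and 6.19 in CeO2 roots. The leaf values were 4.45, 4.30 and 4.32 with water and 4.25, 4.00 and 4.19 with CeO2. All 3 CeO2 root arrays stood clear of the other 9, which lay close together, and the CeO2 leaf arrays were slightly below the water leaf arrays without overlap. The signal rose by 1.96 in CeO2 roots (limma, adjusted p = 0.0392), a factor of 3.89, while the leaf effect was -0.21. The difference of effects was 2.17 ± 0.276 (SE; 95% interval 1.59 to 2.75; limma, adjusted p = 0.00639). Leaving out any 1 of the 12 arrays kept the difference between 2.04 and 2.27. The call was lost with limma in the fit to the 12 CeO2 and water arrays alone (adjusted p = 0.0628) and without the 2 arrays of high lower quartile (adjusted p = 0.120). With TiO2 the same probe set had a root-minus-leaf difference of -0.04. It is not paired with a gene in the annotation used here.

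Within each tissue, the measured CeO2 effects were larger in size in roots, where the standard errors were larger too, and more often past the unadjusted threshold. In the fits per tissue, 4 probe sets (0.0176%) passed in roots with limma, 2 higher and 2 lower (0.00879% each), and 1523 (6.7%) had an unadjusted p below 0.05. In leaves 0 passed and 503 (2.21%) had an unadjusted p below 0.05, 0.892% higher and 1.32% lower. An even spread of p-values would give 1137 in either tissue. Absolute effects of at least 1 on the log2 scale were found for 1843 probe sets in roots and 492 in leaves, and effects of at least 3 for 30 and 0. The median absolute effect was 0.237 in roots and 0.170 in leaves, with median standard errors of 0.347 and 0.282. Water and CeO2 arrays did not overlap for 2955 probe sets (13%) in roots and 1188 (5.22%) in leaves. They did not overlap in either tissue and moved in opposite directions for 84 (0.369%), and in the same direction for 67 (0.295%). With 3 arrays per group such separation is frequent without any effect, so nothing is read from these shares. Across probe sets, which are not independent replicates, the root and leaf effects had a Pearson correlation of 0.033 and a Spearman correlation of -0.030. The root and the leaf effect share no array. In these bulk tissues, fewer cells of a type and less RNA per cell cannot be told apart.

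Among probe sets with an unadjusted p below 0.05 for the difference, the root effect was the larger in size for 915 of the 1116 (82.0%), compared with 60.6% of all probe sets. The effects had opposite signs in 953 (85.4%), compared with 54.0% of all. Both properties are favoured by choosing probe sets for a large difference, and nothing is read from them.

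**Figure D2:**
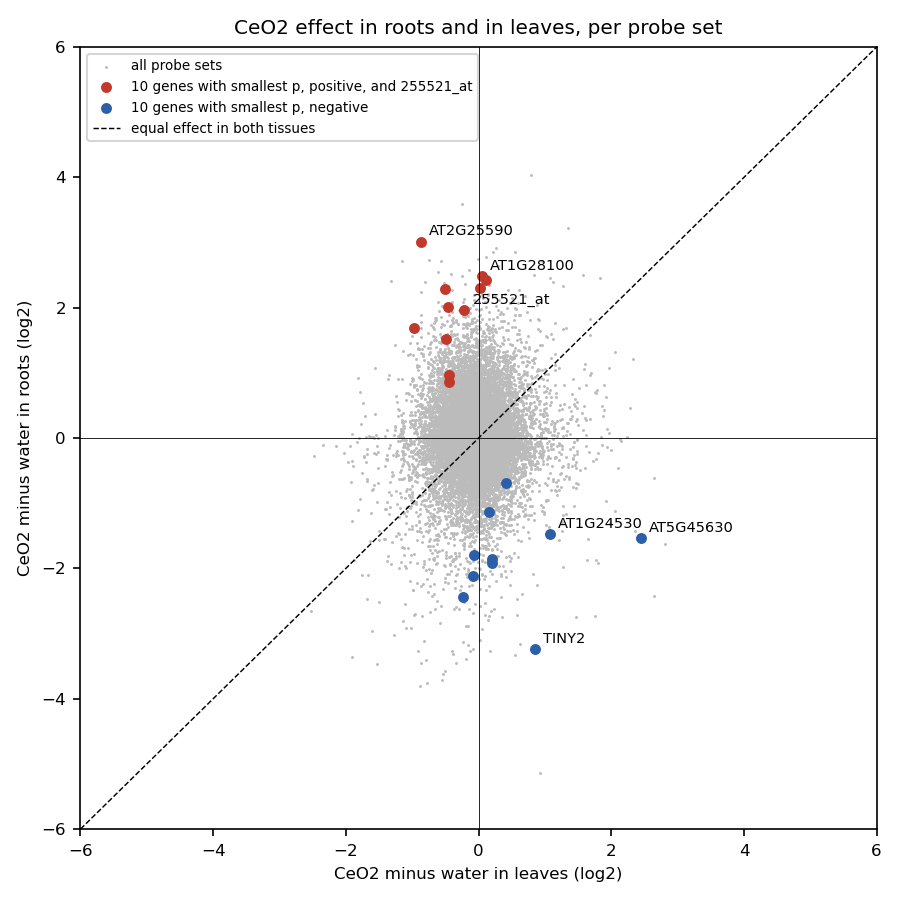
CeO2 minus water in leaves (horizontal axis, log2) against CeO2 minus water in roots (vertical axis, log2), 1 point per probe set. Coloured points are the 20 genes with the smallest p for the difference and 255521_at, and the dashed line marks equal effects. The cloud is taller than wide, and the coloured points lie far from the dashed line along the root axis, except AT5G45630, whose leaf effect of 2.44 is larger than its root effect of -1.53.

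The other 2 probe sets called in roots, like 255521_at, are not paired with a gene in the annotation used here. Probe set 249732_at fell by 2.92 in CeO2 roots (limma, adjusted p = 0.0361), from 6.58, 7.16 and 7.34 to 4.60, 4.07 and 3.66. Its leaf effect was -1.10, with values from 5.41 to 8.50 in water leaves and from 4.74 to 6.91 in CeO2 leaves, which overlapped. Probe set 253263_at rose by 2.26 in CeO2 roots (limma, adjusted p = 0.0392), from 5.09, 5.21 and 4.81 to 7.21, 6.77 and 7.91. Its leaf effect was 0.02, and its difference between tissues, 2.25, did not pass (limma, adjusted p = 0.369). All calls in roots were lost with limma in the fit to 6 arrays (1584 at an unadjusted p below 0.05), with the replicate number as a block (1599) and without the arrays of high lower quartile (1664). They were also lost without CeO2 root replicate 3 or any 1 water root, with 1163 to 1413 at an unadjusted p below 0.05, and 1 call was left without CeO2 root replicate 1. Without CeO2 root replicate 2 there were 4 calls, but only 1 of them was among the 4 reported here. Probe sets 249732_at and 253263_at, outside the naming rule, were singled out after their values were seen.

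AT1G30820, a CTP synthase that makes the cytidine nucleotides of RNA and phospholipid synthesis, was the only named gene called in roots, with the limits just given. It read 10.54, 11.39 and 10.81 in water roots and 7.71, 7.64 and 8.32 in CeO2 roots. Leaf arrays read 9.22, 7.81 and 6.97 with water and 7.25, 7.22 and 5.72 with CeO2. All CeO2 root arrays were below all water root arrays, whereas the leaf groups overlapped and the highest leaf array was a water array. It fell by 3.02 in roots (limma, adjusted p = 0.0392) and its leaf effect was -1.27. The difference between tissues, -1.75 (95% interval -3.36 to -0.14), did not pass (limma, adjusted p = 0.966). A loss confined to roots was thus not shown.

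A second CTP synthase gene, AT4G02120, read 4.91, 3.97 and 4.37 in water roots and 5.81, 5.88 and 5.44 in CeO2 roots. Its leaf signal was 6.28, 5.59 and 5.63 with water and 5.67, 4.58 and 5.92 with CeO2. The root groups were separate, with CeO2 above water, and the leaf groups overlapped. The difference between tissues was 1.74 ± 0.490 (SE; limma, adjusted p = 0.535), opposite in sign to that of AT1G30820. Over the 7 measured genes of CTP and pyrimidine synthesis the median difference was -0.05, with 3 above 0 and 4 below.

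The genes nearest to the threshold are given next as values, since 0 probe sets annotated with 1 gene passed (limma; smallest adjusted p = 0.369, with 1116 probe sets of any annotation at an unadjusted p below 0.05). The 10 genes per direction with the smallest unadjusted p were taken. In all 20, water and CeO2 roots did not overlap, which a choice by p favours and which held for 13% of all probe sets. Family names of genes known by a locus code are general knowledge and not part of the annotation used.

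Of the 10 genes with a higher CeO2 effect in roots, the smallest p belonged to AT1G28100. It read 5.6, 5.5 and 6.22 in water roots and 7.79, 7.90 and 9.08 in CeO2 roots. Leaves gave 5.34, 5.36 and 5.59 with water and 5.19, 5.25 and 6.0 with CeO2. The 3 CeO2 root arrays stood above the other 9, which all lay within about the same range. The difference was 2.44 ± 0.446 (SE; 95% interval 1.50 to 3.37; limma, adjusted p = 0.369), made of a root effect of 2.49 and a leaf effect of 0.05.

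AT2G25590, which encodes a Tudor-like domain protein of a kind that binds modified chromatin, had the largest difference of these 10. It read 6.04, 3.08 and 5.47 in water roots and 7.22, 8.26 and 8.15 in CeO2 roots. In leaves it read 5.59, 4.85 and 5.86 with water and 5.35, 3.91 and 4.42 with CeO2. Water root replicate 2 was low, and the leaf groups overlapped with CeO2 on the lower side. The difference was 3.89 ± 0.843 (SE; 95% interval 2.12 to 5.66), and ran from 2.99 to 4.48 when 1 array at a time was left out.

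The gene scpl31, a member of the serine carboxypeptidase-like family of acyltransferases and peptidases, read 3.84, 4.44 and 4.44 in water roots and 6.64, 7.66 and 5.72 in CeO2 roots. In leaves it stayed between 2.91 and 3.51 on all 6 arrays, near the bottom of the scale. The water roots lay above every leaf array, and the CeO2 roots above both. In the other root arrays its mean was 6.11 with KCl and 4.75 with TiO2. The difference was 2.32 ± 0.551 (SE; 95% interval 1.17 to 3.48).

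AT4G00040, of the chalcone and stilbene synthase family of polyketide-forming enzymes, had a similar shape. It read 4.18, 4.05 and 4.37 in water roots, 6.13, 6.15 and 7.24 in CeO2 roots, and between 4.31 and 5.29 on the 6 leaf arrays. Its difference was 2.28 ± 0.492 (SE).

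In AT1G76460, which encodes an RNA-binding protein, the effects pointed in opposite directions. It read 8.10, 7.67 and 8.35 in water roots and 9.11, 9.77 and 10.29 in CeO2 roots. The leaf values were 6.68, 5.94 and 6.93 with water and 5.66, 4.96 and 6.0 with CeO2. CeO2 roots were above water roots without overlap, and in leaves 1 CeO2 array reached above the lowest water array. The difference was 2.66 ± 0.539 (SE), from a root effect of 1.68 and a leaf effect of -0.98.

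The remaining 5 of these 10 genes had differences from 1.30 to 2.79. AT3G61210, a methyltransferase family member that uses S-adenosylmethionine, read 6.76, 5.95 and 7.04 in water roots and 8.94, 8.46 and 9.20 in CeO2 roots, and its difference was 2.79 ± 0.671 (SE). AT3G02300, with repeats like those of RCC1, read 7.41, 5.53 and 7.0 in water roots and 8.05, 8.77 and 9.13 in CeO2 roots, and its difference was 2.46 ± 0.580 (SE). The CeO2 roots thus lay at or above the level of the leaves in both, where the means of water roots lay below it. SBT3.12, a subtilisin-like serine protease, read 4.93, 3.90 and 5.47 in water roots and 6.20, 6.37 and 6.31 in CeO2 roots, with a difference of 2.01 ± 0.477 (SE). AT5G18525 (difference 1.42 ± 0.324, SE) and AT3G16700 (1.30 ± 0.298, SE) were the only ones of the 10 whose leaf groups did not overlap either, with CeO2 lower, as held for 5.22% of all probe sets.

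**Figure D3:**
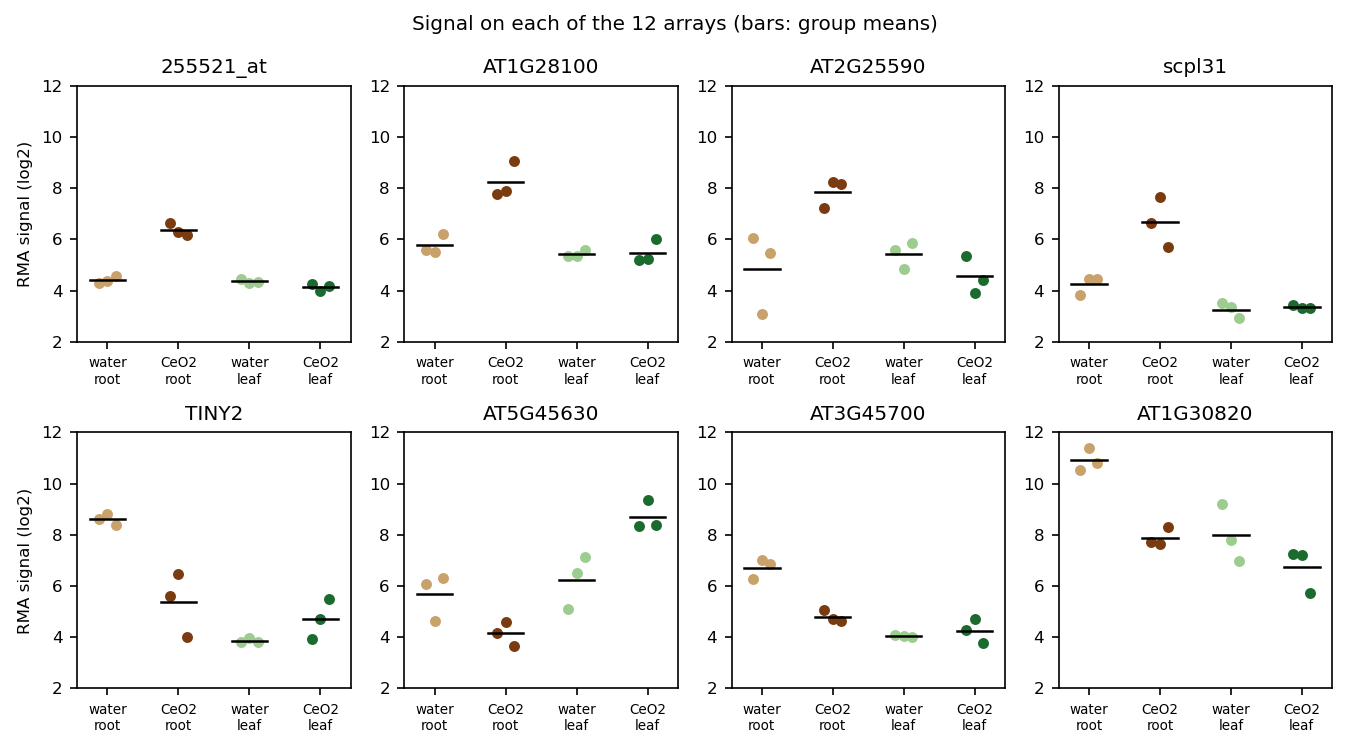
RMA signal (vertical axis, log2) of 8 probe sets on each of the 12 arrays, by group (horizontal axis), with bars at the group means. For 255521_at, AT1G28100 and scpl31 the CeO2 roots stand above the 3 other groups. For TINY2, AT3G45700 and AT1G30820 the water roots stand above them, and AT5G45630 is lower with CeO2 in roots and higher with CeO2 in leaves.

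On the opposite side, TINY2 had the largest difference. It encodes an AP2/ERF transcription factor related to the DREB factors of drought and cold responses. It read 8.61, 8.82 and 8.37 in water roots and 5.6, 6.46 and 4.01 in CeO2 roots. Leaf arrays read 3.81, 3.98 and 3.81 with water and 3.93, 4.72 and 5.50 with CeO2. Of these 4 groups the water roots were the highest, and CeO2 root replicate 3 was at the leaf level. In the other root arrays its mean was 5.63 with KCl and 8.165 with TiO2. The difference was -4.09 ± 0.922 (SE; 95% interval -6.03 to -2.16; limma, adjusted p = 0.447), from a root effect of -3.24 and a leaf effect of 0.85. It ran from -4.64 to -3.42 without 1 array.

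AT5G45630, of a family named after regulators of leaf senescence, was the only one of the 20 whose leaf effect was the larger. It read 6.08, 4.63 and 6.32 in water roots and 4.18, 4.60 and 3.65 in CeO2 roots. Its leaf signal was 5.11, 6.53 and 7.11 with water and 8.34, 9.37 and 8.37 with CeO2. Neither tissue had overlapping groups, and the direction was opposite in the 2 tissues. The difference was -3.98 ± 0.982 (SE; 95% interval -6.04 to -1.91), from a root effect of -1.53 and a leaf effect of 2.44.

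AT1G24530, a protein with WD repeats, had the same pattern at a higher level. It read 10.04, 10.23 and 10.31 in water roots and 8.39, 9.28 and 8.47 in CeO2 roots. Leaves gave 6.96, 8.74 and 8.48 with water and 9.06, 9.11 and 9.22 with CeO2. Again neither tissue overlapped, although water leaf replicate 1 stood apart from the other 2. The difference was -2.54 ± 0.686 (SE), from -1.47 in roots and 1.07 in leaves.

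Root-expressed transporter and lectin genes were also among these 10. AT3G45700, of the nitrate and peptide transporter family, read 6.27, 7.0 and 6.87 in water roots, 5.06, 4.71 and 4.61 in CeO2 roots, and between 3.75 and 4.70 on the 6 leaf arrays. Its difference was -2.12 ± 0.527 (SE). AT1G53060, of the legume lectin family of sugar-binding proteins, read 6.39, 7.20 and 7.09 in water roots, 5.14, 4.59 and 3.63 in CeO2 roots, and between 4.18 and 4.66 in leaves. In both genes the CeO2 roots were near the leaf level. The difference of AT1G53060 was -2.20 ± 0.554 (SE).

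AT5G19250, a glycoprotein anchored in the plasma membrane by a lipid, read 8.99, 10 and 8.41 in water roots and 7.91, 7.48 and 6.43 in CeO2 roots, with all leaf arrays between 10.103 and 10.68. Its difference was -2.07 ± 0.522 (SE). AT4G36680, a pentatricopeptide repeat protein of the kind that processes organelle RNA, read 8.21, 9.69 and 8.95 in water roots and 7.62, 6.61 and 6.26 in CeO2 roots, and its difference was -2.03 ± 0.533 (SE). AT1G56210, with a heavy-metal-associated domain, read 5.87, 6.63 and 6.69 in water roots and 4.52, 4.55 and 4.74 in CeO2 roots, and its difference was -1.73 ± 0.457 (SE). In these 3 genes every leaf effect was within 0.21 of 0. AT5G14610, an RNA helicase of the DEAD-box family (-1.29 ± 0.275, SE), and AT5G57250, another pentatricopeptide repeat protein (-1.10 ± 0.291, SE), had the smallest differences of the 10.

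In the water arrays, 8 of these 10 genes had a higher mean in roots than in leaves. Of the 10 genes of the opposite direction, 5 did. The water arrays are part of the difference by which the genes were chosen, so nothing is read from these counts. The adjusted p ran from 0.369 to 0.447 in the first 10 and from 0.369 to 0.467 in the second 10. All 20 kept the sign of their difference when each of the 12 arrays was left out.

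The same difference was measured for TiO2 in the other 12 arrays, which share no array with the CeO2 arrays. There 47 probe sets passed with limma (0.207%), 21 with a higher (0.0923%) and 26 with a lower effect in roots (0.114%). The count ran from 2 (without TiO2 leaf replicate 2 or 3) to 201 (without TiO2 root replicate 2), and centring arrays on their medians gave 34 higher and 15 lower. At an unadjusted p below 0.05 there were 2537, or 11.2%, with 4.58% higher and 6.57% lower. Across probe sets, which are not independent, the CeO2 and TiO2 differences had a Pearson correlation of -0.136 and a Spearman correlation of -0.118. An unadjusted p below 0.05 in both was found for 229 probe sets, 20.5% of the CeO2 set and 9.03% of the TiO2 set. The signs were opposite in 178 of these and the same in 51. Of the 47 probe sets called for TiO2, 12 had an unadjusted p below 0.05 for CeO2. Both tests took the spread of a probe set from the same fit, which favours a small p in both. Nothing is therefore read from the size of these overlaps.

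Of the 10 genes with a higher CeO2 effect in roots, 8 had a TiO2 difference of opposite sign, and of the 10 with a lower one, 9 had. None of the 20 passed for TiO2 with limma. Of them, 8 had an unadjusted p below 0.05, 2 in the first and 6 in the second set, which the shared spread also favours. AT1G24530 had a TiO2 difference of 3.36 (limma, adjusted p = 0.0515), AT5G45630 one of 3.49 (adjusted p = 0.150) and TINY2 one of 2.29 (adjusted p = 0.343). AT1G53060 had 2.13 (adjusted p = 0.120), and AT1G30820, called for CeO2 in roots, had 3.16 (adjusted p = 0.0913). A test of the CeO2 difference against the TiO2 difference was not run, and the particles were given in different liquids.

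**Figure D4:**
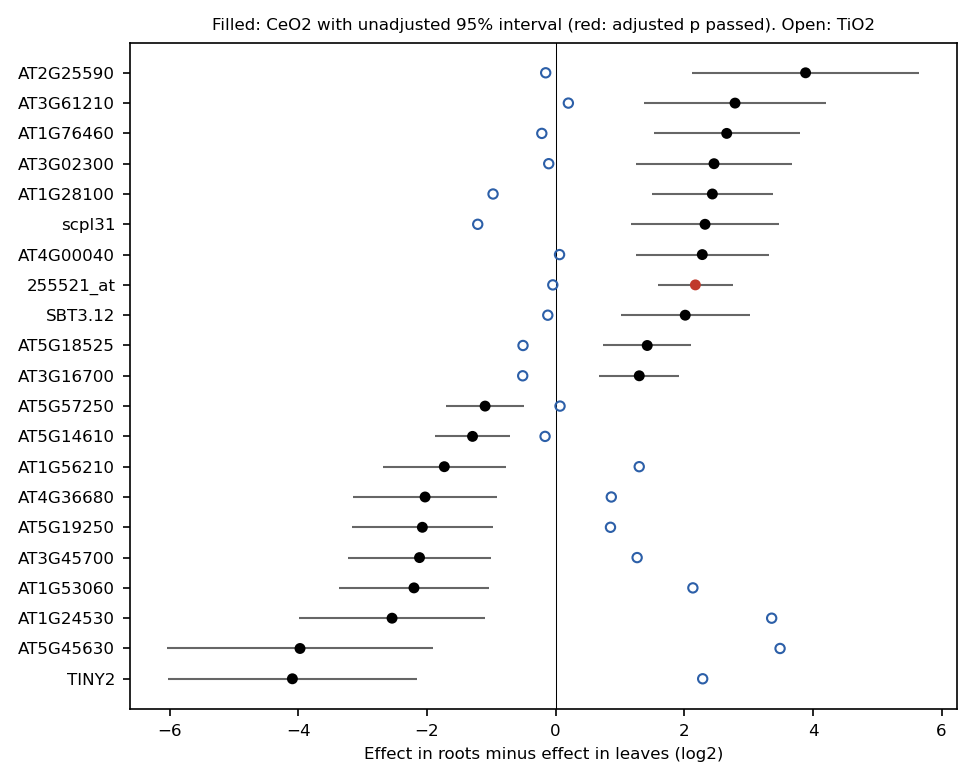
Effect in roots minus effect in leaves (horizontal axis, log2) for the 20 genes and 255521_at, ordered by the CeO2 value. Filled points are CeO2 with unadjusted 95% intervals (red for the 1 that passed) and open points are TiO2. The CeO2 intervals exclude 0 because the genes were chosen by p, and most open points below the middle lie on the opposite side of 0.

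Gene groups were then described by counts and medians, without a test. Over all probe sets the median difference was -0.06 and 44.02% were above 0. The median was -0.14 for dim probe sets (mean of 5 or below) and 0.14 for the others. Of 55 lists, 6 had no measured gene and 33 had at least 5. The medians of these 33 ran from -0.62 to 0.94, 13 above 0 and 20 below, and 18 kept the sign of their median when each array was left out. Of the 472 genes in any list, 0 passed with limma.

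Among lists with at least 5 measured genes, the genes of the plastid genome had the highest median. These encode photosystem, ATP synthase and NDH subunits, plastid ribosomal proteins and the plastid RNA polymerase. Of 69 measured genes, 64 had a difference above 0, compared with 44.02% of all probe sets, and the median was 0.94. Of the 69, 12 (all higher) had an unadjusted p below 0.05, compared with 2.62% of all probe sets. The median root effect was 0.41 and the median leaf effect -0.49. In leaves 13 had an unadjusted p below 0.05, all lower with CeO2 (1.32% of all probe sets), and in roots 2 had, both higher (3.82%). These genes share transcripts and a genome, so that they are not independent.

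The list's median signal was 6.19, 4.88 and 6.36 in water roots and 6.90, 6.43 and 6.18 in CeO2 roots. In leaves it was 10.43, 9.97 and 10.50 with water and 9.81, 9.78 and 9.76 with CeO2. The 3 CeO2 leaf arrays were below the 3 water leaf arrays, narrowly so for water leaf replicate 2. The root groups overlapped, and water root replicate 2 was the lowest root array. Without that array the median difference over the 69 genes was 0.40 with 47 above 0, and without any other array it lay between 0.81 and 1.24. It was 1.38 without the arrays of high lower quartile. For TiO2 the median difference was -0.82, with 62 of 69 below 0 and 10 lower at an unadjusted p below 0.05.

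Among the plastid genes, the 15 of the ribosome had the largest median difference of the groups with at least 5 genes, 1.51, with 14 above 0. Those of the ATP synthase had 1.21 (6 of 6 above 0), those of the photosystems and cytochromes 0.67 (28 of 30) and those of the NDH complex 0.61 (9 of 10). The ribosome genes' median signal was 8.27 in CeO2 root replicate 1, whereas 5.42 and 6.10 in the other 2 CeO2 roots lay within the water root values, 4.70 to 6.18. The smallest p belonged to atpF, a stalk subunit of the ATP synthase. It read 4.11, 3.37 and 4.24 in water roots and 4.67, 4.49 and 4.08 in CeO2 roots. In leaves it read 9.10, 8.91 and 9.31 with water and 8.30, 8.72 and 7.75 with CeO2. The leaf groups were separate and the root groups overlapped. Its difference was 1.36 ± 0.473 (SE; limma, adjusted p = 0.775).

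Nuclear genes of photosynthesis leaned the same way. Of 14 photosystem and antenna genes, 12 had a difference above 0, with a median of 0.79 (root 0.31, leaf -0.34) and 0 at an unadjusted p below 0.05 with limma. The median was 1.22 without water root replicate 3 and 0.57 without the arrays of high lower quartile. Without CeO2 root replicate 2 it was 0.55, with 9 of the 14 genes above 0. The list's median signal overlapped between water and CeO2 in both tissues. It was 5.37, 5.97 and 7.04 in water roots and 6.22, 7.80 and 5.24 in CeO2 roots. In leaves it was 12.37, 11.73 and 12.18 with water and 10.59, 11.42 and 12.22 with CeO2. Of 8 chlorophyll synthesis genes 7 had a difference above 0, with a median of 0.50. That median was 0.19 without water leaf replicate 1, 0.98 without CeO2 leaf replicate 3 and 0.03 without the arrays of high lower quartile. CHLM, the methyltransferase of the magnesium branch, had 1.85 (limma, adjusted p = 0.874). All 3 measured Calvin cycle genes were above 0. RCA, the activase of Rubisco, read 6.42, 7.64 and 7.36 in water roots and 8.997, 9.83 and 8.00 in CeO2 roots. The leaf values were 13.15, 12.77 and 12.90 with water and 12.02, 12.34 and 12.49 with CeO2. Neither tissue had overlapping groups, and the direction was opposite between them. Its difference was 2.45 ± 0.655 (SE; 95% interval 1.08 to 3.83; limma, adjusted p = 0.464). PRK, phosphoribulokinase, had 1.72 (limma, adjusted p = 0.920). The 9 leaf photosynthesis markers are all members of these lists. Their median difference was 1.10, and their summed signal overlapped between water and CeO2 in both tissues. Because the markers belong to these lists, they give no separate view of them. The part of leaf markers on the root arrays in the result was not tested.

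Both groups of breakdown genes had medians above 0. Of 11 ATG genes, which form autophagosomes, 9 were above 0, with a median of 0.70, which was 0.22 without CeO2 root replicate 3. Of 9 genes of carbon starvation and branched-chain amino acid breakdown, 7 were, with a median of 0.46, which ran from -0.10 to 1.03 when 1 array was left out. None of the genes of both lists had an unadjusted p below 0.05 with limma. The TiO2 difference was above 0 for all 11 ATG genes, 5 of them with an unadjusted p below 0.05 (4.58% of all probe sets).

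Most cell wall genes had a difference below 0. Of 44 expansins, xyloglucan endotransglucosylases (XTH) and endoglucanases, which loosen or remodel the wall during growth, 36 did. Of all probe sets, 44.02% were above 0. The median of the 44 genes was -0.28, and -0.14 without the arrays of high lower quartile. Their median signal was only 4.02 to 5.04 on the 12 arrays. Dim probe sets as a whole (mean of 5 or below) had a median difference of -0.14. In roots 7 of the 44 were lower with CeO2 at an unadjusted p below 0.05 with limma (2.87% of all probe sets). In leaves 0 of the 44 were. EXPB3, a beta-expansin, read 11.33, 11.85 and 10.98 in water roots and 9.14, 8.24 and 7.48 in CeO2 roots, and between 4.41 and 6.65 in leaves. The CeO2 roots were clearly below the water roots and the leaf groups overlapped. Its difference was -3.12 ± 1.19 (SE; limma, adjusted p = 0.834). XTH32 read 9.94, 11.69 and 11.13 in water roots and 7.94, 8.47 and 5.08 in CeO2 roots, and the leaf arrays spread from 5.57 to 9.57. Its difference was -2.98 ± 1.41 (SE; limma, adjusted p = 0.967). Of 15 cellulose synthase and pectin genes 13 were below 0, with a median of -0.52, a root median of -0.43 and a leaf median of -0.01. The median difference was -0.88 without CeO2 root replicate 1, -0.22 without CeO2 leaf replicate 2 and -0.11 without the arrays of high lower quartile.

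Lists of defence and secondary metabolism differed among themselves. All 5 measured glucosinolate genes were below 0, with a median of -0.52 that ran from -1.20 (without water leaf replicate 3) to -0.37 (without CeO2 root replicate 3). BCAT4, the aminotransferase that starts the elongation of methionine for glucosinolates, read 9.40, 10.81 and 9.14 in water roots and 6.61, 7.48 and 8.08 in CeO2 roots. Leaf arrays read 10.36, 10.34 and 11.95 with water and 11.41, 11.59 and 11.62 with CeO2. The root groups were separate and the leaf groups overlapped. Its difference was -3.04 ± 1.03 (SE; limma, adjusted p = 0.742), and its TiO2 difference was -3.09 (limma, adjusted p = 0.232). Of 9 flavonoid genes 8 were below 0 (median -0.57), of 22 cytochrome P450 genes 19 (median -0.15), of 7 WRKY factors 6 (median -0.48) and of 6 senescence genes 6 (median -0.62). WRKY22, WRKY6 and WRKY53 are in both of the last 2 lists. None of the genes of these 4 lists had an unadjusted p below 0.05 with limma. The WRKY median ran from -0.78 (without CeO2 root replicate 1) to -0.27 (without CeO2 root replicate 3), and the P450 median was -0.04 without the arrays of high lower quartile. The P450 list was dim, with a median signal of 3.58 to 4.87 on the 12 arrays. Its median difference lay near the -0.14 of all dim probe sets. The senescence median was -0.09 without CeO2 root replicate 3 and -1.03 without CeO2 root replicate 2, and the flavonoid median -0.01 without CeO2 leaf replicate 3. Other lists of this kind had medians above 0: phenylpropanoid and lignin 0.29 (3 of 5 above 0), PYK10 and jacalin lectins 0.11 (7 of 12) and jasmonate 0.53 (3 of 4). Without the arrays of high lower quartile the jasmonate median was -0.15.

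Genes that handle oxidants, heat and metals showed no common direction. Of 5 antioxidant enzyme genes 3 were above 0, and TAPX, the ascorbate peroxidase of the thylakoid, had 1.13 (95% interval -0.03 to 2.30). Of 14 glutathione transferases 9 were above 0, with a median of 0.25. GSTU20, a tau-class member, was far from that median. It read 7.39, 9.86 and 8.96 in water roots and 7.45, 5.85 and 4.78 in CeO2 roots, and between 10.25 and 11.74 in leaves. The root groups overlapped through water root replicate 1. Its difference was -3.28 ± 0.956 (SE; limma, adjusted p = 0.563). The median of 6 heat shock genes was -0.30, and ran from -1.29 to 0.45 when 1 array was left out. Hsp70-2, a chaperone, had -2.00 (limma, adjusted p = 0.785). The 5 genes of zinc, copper and manganese transport had a median of 0.15, and 2 iron genes 0.20.

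The medians of the remaining lists lay on both sides of 0. The 51 UDP-glycosyltransferases, which attach sugars to hormones and metabolites, had a median of 0.02 with 27 above 0 and 24 below. The 16 auxin genes had -0.23, and YUC4, which makes auxin, had -1.04 (limma, adjusted p = 0.778). It read 4.50, 4.61 and 4.15 in water roots and 3.12, 3.50 and 3.55 in CeO2 roots, and its 6 leaf arrays were between 3.00 and 3.74. The 21 sugar transport and starch genes had -0.22, the 16 calcium signalling genes also -0.22 (12 below 0), the 16 genes of the mitochondrial genome -0.29 (10 below 0) and the 6 core histones 0.01. Without the arrays of high lower quartile the auxin median was -0.06, and those of the sugar and mitochondrial lists were both 0.02. The 12 nitrate and ammonium genes had -0.30 (9 below 0), the 7 class III peroxidases -0.54 (4 below 0) and the 5 CC-type glutaredoxins 0.57 (3 above 0). Without the arrays of high lower quartile these medians were -0.13, -0.08 and 0.18. SWEET11, which exports sucrose to the phloem, had 1.44 (limma, adjusted p = 0.967).

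**Figure D5:**
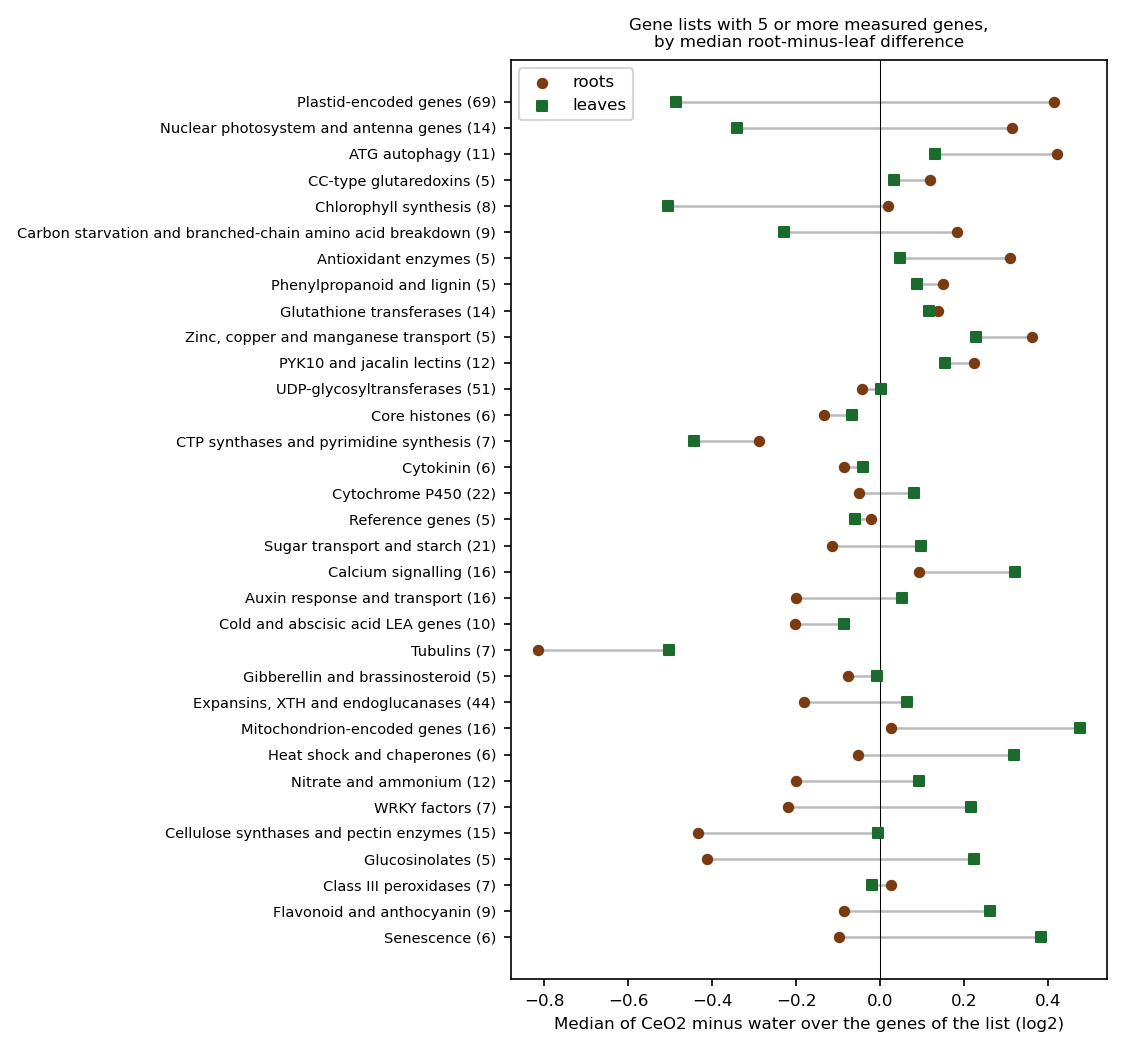
Median CeO2 minus water (horizontal axis, log2) in roots (circles) and leaves (squares) over the measured genes of 33 lists, with the number of genes in brackets, ordered by the median over genes of the difference, which need not equal the gap drawn. Plastid-encoded genes (root 0.41, leaf -0.49) stand at the top and senescence genes at the bottom, and most lists lie within 0.50 of 0 in both tissues.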

How the data were processed

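Total RNA of roots and rosette leaves was hybridised to Affymetrix ATH1 arrays. The authors deposited log2 values, 1 per probe set and array, made with RMA per the submitters' processing notes. Its version, and whether it was run on all arrays at once, are not given in the sources used here. The number of arrays limits the precision.

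Of 22746 probe sets, 13513 are annotated with 1 gene, 503 with several and 8730 with none, and all were tested. Of the first, 13436 matched the RefSeq table of the TAIR 10.1 assembly. That table and the array files share no stated build, so no coordinates are given. No genome sequence was used.

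limma 3.58.1 in R 4.3.3 fitted 8 group means to 24 arrays for the differences between tissues, and 4 means to the 12 arrays of a tissue for CeO2 minus water. Tests were two-sided, with Benjamini-Hochberg adjustment across all probe sets, separately for the 4 comparisons. Intervals are 95% and unadjusted. The fits were tested on simulated data. Tables were read with Python 3.11.15 and pandas 2.3.3 and plotted with matplotlib 3.10.9.

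Named genes are those that passed, filled up to 10 per direction by the smallest p among probe sets of 1 gene, those called within a tissue, and up to 3 members per list by p. Members and lists were chosen with earlier results of these data known. The plastid and mitochondrial lists were redefined by the annotation, and 7 genes that matched a list by name only were left out. A gene with several probe sets counts by the brightest. Nothing in the labels says what a replicate number marks. Correlations of deviations from the group means between arrays of the same number were 0.26 to 0.33 for CeO2 roots and CeO2 leaves, where all pairs of unlike number were below 0, so the numbers may pair those arrays. In the other pairs of groups they ran from -0.41 to 0.16, which shows no pairing by number. With 3 arrays per group these values cannot settle whether the numbers pair the samples. Alternatives were the arrays fitted, normalization, a filter at a mean of 5, array weights, an intensity trend, replicate blocks and leaving out arrays. For TiO2, the fit to its own 12 arrays and leaving out arrays were added after seeing the data.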

Additional observations from a re-analysis of the deposited data

Results flagged for a closer look

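Probe set 255521_at had a CeO2 effect that differed between roots and leaves, by 2.17 on the log2 scale, in the limma test of the difference itself. It did not pass in the fit to 12 arrays or without the arrays of high lower quartile. The same kind of test for TiO2 called 47 probe sets, and 2 to 201 when 1 array was left out.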

How the results depend on the processing

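For the CeO2 difference between tissues, 1 probe set passed in the fit reported. It was again 1 with arrays quantile-normalized again, with arrays centred on their medians, with an intensity trend and with either replicate block. The count was 0 by limma in the fit to 12 arrays (1104 at an unadjusted p below 0.05), with a mean signal above 5 (658; 255521_at is below that mean) and without the narrow arrays, those of high lower quartile (1328). It was 841 with array weights (436 higher, 405 lower). Weights ran from 0.30 to 9.81 and their estimate did not reach its tolerance. Water root replicate 3 had 9.81 and CeO2 root replicate 2 had 8.47. The other water and CeO2 root arrays had 0.31 to 0.77, so the weighted root effect rested mainly on 1 array per group. Leaving out 1 array gave 1 to 3, with 3 without CeO2 root replicate 2, when 247084_at (2.05) and 258239_at (-3.85), neither paired with a gene here, joined 255521_at. The adjusted p of 255521_at was 0.0628 in the fit to 12 arrays and 0.120 without the narrow arrays, with differences of 2.17 and 2.04.

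Of the 20 genes and 255521_at, 0 changed sign under any alternative, and 19 passed with array weights. Nothing is read from the 19, given the uneven weights of the root arrays. Of all 133 probe sets named or picked from lists, 25 changed sign under at least 1 alternative, none of them called.

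For CeO2 in roots, where 4 passed, the count was 2 after quantile normalization, 1 after centring (0 higher, 1 lower, against 2 and 2), 2 with a mean above 5 (both lower), 1 with an intensity trend (lower) and 4760 with array weights. It was 0 by limma in the fit to 6 arrays (1584 at an unadjusted p below 0.05) and without the narrow arrays (1664). Pairing by replicate number as a block also gave 0 (1599). Leaving out 1 array gave 0 to 4: it was 4 without CeO2 root replicate 2, 1 without CeO2 root replicate 1 and 0 without any other. Of the 4 without CeO2 root replicate 2 (3 higher, 1 lower), only 1 was among the 4 of the fit reported. For leaves the count was 0 under all alternatives with limma, with 286 to 1475 at an unadjusted p below 0.05 when 1 array was left out.

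For TiO2, where 47 passed, the count was 24 in the fit to its 12 arrays, 29 with a mean above 5, 4147 with array weights, 31 with the replicate number as a block, 11 with root and leaf of a number as a random block and 152 without the narrow arrays. The calls changed too. Of the 47, 11 passed again in the fit to 12 arrays, 22 without the narrow arrays and 25 with a mean above 5. With the replicate number as a block 26 did, with the random block 11, and with array weights all 47. Leaving out 1 array gave 2 (TiO2 leaf replicates 2 and 3) to 201 (TiO2 root replicate 2), with 3 for TiO2 root replicate 3, 9 for KCl leaf replicate 3, 148 for TiO2 leaf replicate 1, and 18 to 24 for TiO2 root replicate 1, KCl leaf replicate 1 and KCl root replicates 2 and 3. Centring put the median over all probe sets at 0.18, from near 0, and the calls at 34 higher and 15 lower, against 21 and 26. The causes of these shifts were not tested. Dim probe sets (mean of 5 or below) had a median CeO2 difference of -0.14 and the 12051 others 0.14.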
